A study of Mus musculus with 4 samples.

Results

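The family of miR-130 and miR-301 was examined by small RNA sequencing of mouse embryonic fibroblasts (MEFs), which are primary connective-tissue cells cultured from embryos. Its members were taken by name: mmu-miR-130a, mmu-miR-130b, mmu-miR-301a and mmu-miR-301b, with or without the star that marks the arm listed as the passenger strand. This gave 5 of the 508 endogenous microRNAs listed, namely these 4 guide strands and mmu-miR-130b*, and all 5 were listed in each of the 4 libraries. Cells of all libraries carried shLuc.1309, an shRNA (short hairpin RNA) directed at luciferase, for which mouse cells have no gene. The 4 groups held 1 library each: shLuc.1309;ROSA-rtTA cells with and without doxycycline (dox), then shLuc.1309 cells with and without dox. ROSA-rtTA is a transactivator expressed from the widely active Rosa26 locus that needs dox to turn on promoters with tetracycline operator sites. The labels give neither embryo age, dox dose nor the number of embryos behind a library.

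A microRNA guides the silencing complex to messages that pair with bases 2 to 8 from its 5′ end, the seed. The family members share one seed and are therefore predicted to recognise largely the same messages. In mouse preadipocytes miR-130 is known to repress Pparg, the master regulator of fat cell formation, and in vascular cells the family has been linked to proliferation through PPARγ. In human endothelial cells miR-130a is known to repress the homeobox genes GAX and HOXA5. Human miR-301a has been described as growth-promoting in several tumours.

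The 4 guide strands are shown first because their seed defines the family and their differing 3′ ends tell the members apart. miR-130b* is added as the only listed opposite arm. They are the deposited sequences, written with T for U and with bases 2 to 8 in capitals:
miR-130a: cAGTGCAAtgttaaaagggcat
miR-130b: cAGTGCAAtgatgaaagggcat
miR-301a: cAGTGCAAtagtattgtcaaagc
miR-301b: cAGTGCAAtggtattgtcaaagc
miR-130b*: aCTCTTTCcctgttgcactact
Counting from 1 at the 5′ end, miR-130b differs from miR-130a by T11A and A13G, and miR-301b differs from miR-301a by A10G. Each guide strand thus has 1 listed microRNA at most 2 mismatches away, its own partner, and how reads that fit both were counted is not given in the sources used here. miR-130b* carries another seed and had no such neighbour. Of all listed microRNAs, 1 further one held the family seed: miR-721, with 1 count in rtTA cells without dox and no listing in the other libraries.

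The genes lie at 3 places in the genome (GRCm38.p6, RefSeq and GENCODE M21). miR-130a lies at chr2:84741116-84741137 on the minus strand, outside any other annotated gene. miR-301a lies at chr11:87113054-87113076 on the plus strand, in an intron of Ska2, which encodes a spindle and kinetochore protein. miR-130b (chr16:17124071-17124092), miR-130b* (chr16:17124109-17124130) and miR-301b (chr16:17124420-17124442) lie on the minus strand in an intron of 2610318N02Rik. The miR-130b and miR-301b hairpins are 257 bases apart, and no other listed microRNA lay within 10 kb of a family hairpin. The hairpins (RefSeq, 5′ to 3′) are shown with the listed arms in capitals, since they place the guide strand on the 3′ arm of every member and show that miR-130b alone had a listed opposite arm:
Mir130a: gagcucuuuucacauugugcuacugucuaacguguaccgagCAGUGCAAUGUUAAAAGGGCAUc
Mir130b: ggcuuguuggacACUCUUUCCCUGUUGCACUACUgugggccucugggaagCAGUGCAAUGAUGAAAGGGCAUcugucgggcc
Mir301: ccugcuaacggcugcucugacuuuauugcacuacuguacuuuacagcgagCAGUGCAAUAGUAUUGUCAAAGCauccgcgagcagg
Mir301b: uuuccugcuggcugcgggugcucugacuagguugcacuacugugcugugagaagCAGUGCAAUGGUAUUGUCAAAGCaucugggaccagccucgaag
Passenger strands of the other 3 hairpins were not among the listed names, and whether reads were matched to them is not given in the sources used here.

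The libraries held 6383594 to 8780954 counts. Levels are given as CPM, counts per 1000000 endogenous microRNA counts, with the shRNA row left out of the scaling. The shRNA stood at 24386 CPM in rtTA cells with dox, against 786 CPM in rtTA cells without dox, 774 CPM in cells without rtTA under dox and 726 CPM in cells without either, so a single library was induced. Of 6 fibroblast markers 5 were listed, and their summed level was 408172 to 422563 CPM. Markers of other cell types summed to 246 to 592 CPM (muscle, 4 of 4 listed), 770 to 979 CPM (neuronal, 8 of 8), 120 to 175 CPM (endothelial, 2 of 2), 52.5 to 82.2 CPM (blood, 6 of 6), 5.49 to 20.3 CPM (epithelial, 7 of 7) and 0.470 to 1.20 CPM (pluripotent, 5 of 9). Fewer cells of a type and less RNA per cell cannot be told apart in such bulk libraries. With 1 library per group no difference below has a replicate check: each one compares libraries, its 95% interval covers counting error only, and no p-value is given for it. Each library enters 2 of the 4 comparisons.

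miR-130a was the dominant member in every library. It reached 138388 counts (18432 CPM) in rtTA cells with dox, 143896 (16400 CPM) in rtTA cells without dox, 123008 (18809 CPM) in cells without rtTA under dox and 102497 (16068 CPM) in cells without rtTA or dox. The dox-treated libraries were the higher ones in both genotypes, and the highest library exceeded the lowest by 1.17-fold. It ranked 10 among the endogenous microRNAs of both dox-treated libraries and 12 in both others. miR-130a made up 90.3% of the guide counts of the family in rtTA cells with dox (95% interval 90.2% to 90.4%, Clopper-Pearson), 87.9% in rtTA cells without dox, 89.5% in cells without rtTA under dox and 87.0% in cells without either.

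miR-130b, with 18.1 to 22.8 times fewer counts than miR-130a, stood at one level in 3 libraries and higher in the induced one. It had 7636 counts (1017 CPM) in rtTA cells with dox, 7248 (826 CPM) in rtTA cells without dox, 5387 (824 CPM) in cells without rtTA under dox and 5263 (825 CPM) in cells without either. The 3 uninduced libraries overlapped in their counting intervals, and the induced one lay above all of them. Counting intervals are narrow at such counts, and the share of all microRNAs set apart in this way was not computed.

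miR-301a had the widest range of the guide strands, 1.65-fold, and its lowest level was in the induced library. It had 6930 counts (923 CPM) in rtTA cells with dox, 12285 (1400 CPM) in rtTA cells without dox, 8678 (1327 CPM) in cells without rtTA under dox and 9728 (1525 CPM) in cells without either. No counting intervals overlapped between these libraries, but they are narrow at such counts, and the same share over all microRNAs was not computed. Its partner by sequence, miR-301b, was the rarest guide strand. It had 300 counts (40.0 CPM) in rtTA cells with dox, 353 (40.2 CPM) in rtTA cells without dox, 332 (50.8 CPM) in cells without rtTA under dox and 358 (56.1 CPM) in cells without either. Both rtTA libraries lay below both libraries without rtTA, and within a genotype the intervals overlapped.

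The passenger strand miR-130b* was a trace RNA. It had 19 counts (2.53 CPM) in rtTA cells with dox, 46 (5.24 CPM) in rtTA cells without dox, 62 (9.48 CPM) in cells without rtTA under dox and 25 (3.92 CPM) in cells without either. The highest library exceeded the lowest by 3.75-fold, on few counts.

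**Figure D1:**
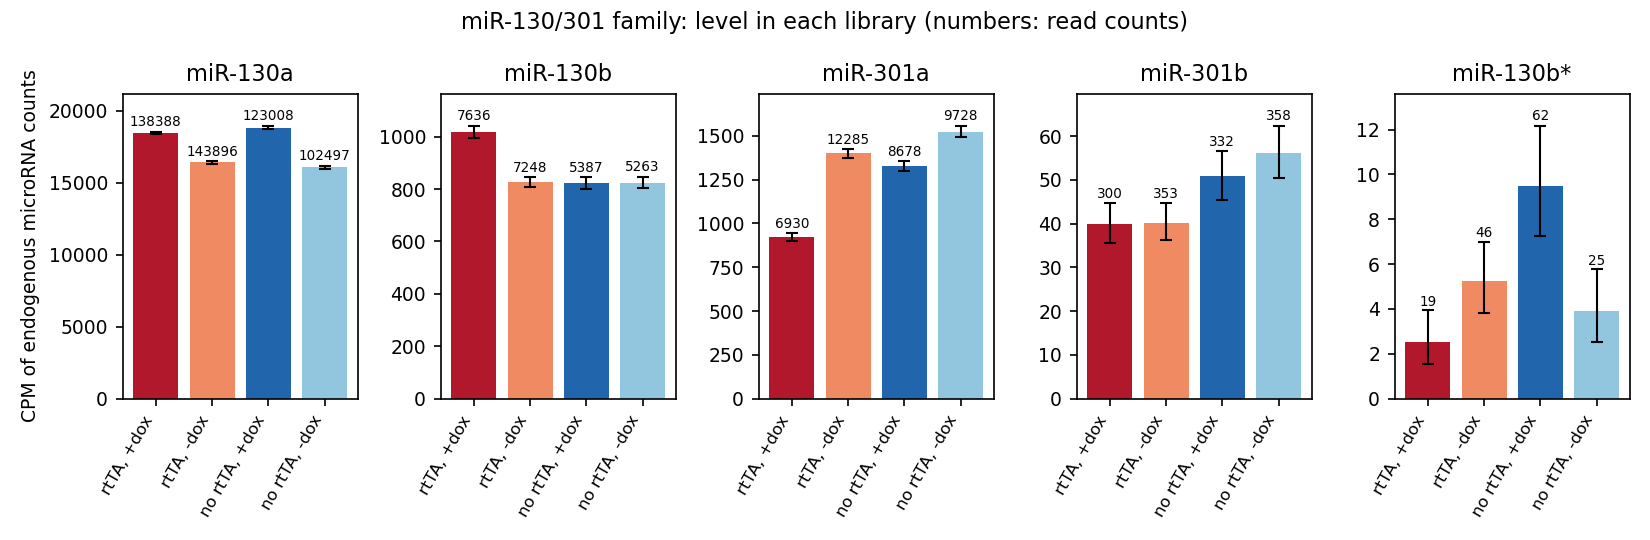
Level of each family member in the 4 libraries, in CPM of endogenous microRNA counts (vertical axes start at 0 and differ between panels). Bars are single libraries, error bars are 95% counting intervals (Clopper-Pearson) and the numbers above the bars are read counts; miR-130b is highest and miR-301a lowest in rtTA cells with dox.

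Dox in rtTA cells switches the shRNA on and addresses whether the endogenous microRNA pool differs when it is abundant. The family total hardly differed: the 4 guide strands summed to 20412 CPM in rtTA cells with dox and 18667 CPM in rtTA cells without dox, a log2 ratio of 0.13 (0.12 to 0.14). In the induced library the shRNA (24386 CPM) thus exceeded the whole family. The members pointed different ways beneath that total. miR-130a had a log2 ratio of 0.17 (0.16 to 0.18) and miR-130b of 0.30 (0.25 to 0.35), both higher with dox under each scaling tried. miR-301a was lower, at -0.60 (-0.64 to -0.56), a level 0.659 times that of the rtTA library without dox. miR-301b was at -0.0099 (-0.24 to 0.22), and its sign changed under TMM, under DESeq2 factors and when the 10 most abundant microRNAs were left out of the scaling. With miR-130a left out, the other 3 guide strands together were at -0.19.

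Of the 5 members, 1 was at least 2-fold apart with a counting interval that excluded equality. This was miR-130b*, at -1.05 (-1.90 to -0.25), while 8.6% of the 372 microRNAs with enough counts were called lower by that rule, 1.34% higher and 9.95% in either direction. At 1.5-fold, miR-301a was called as well, making 2 of 5 against 28.8% of all 372 apart in either direction. The median log2 ratio of the 4 guide strands was 0.079, against -0.057 over the 372. Of the 372, 17.2% had a lower ratio than miR-301a and 76.1% a lower ratio than miR-130b.

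Ratios in this comparison moved with the G content of the mature sequences, with a Pearson correlation of 0.72 across the 372 microRNAs of the same libraries, given as a description. The members lined up by G in the same order: miR-130b* (9.09% G), miR-301a (21.7%), miR-301b (26.1%), miR-130a (27.3%) and miR-130b (31.8%) ran from the lowest to the highest log2 ratio. After the linear trend on G was subtracted, the log2 ratio was -0.25 for miR-130b*, -0.34 for miR-301a, 0.064 for miR-301b, 0.19 for miR-130a and 0.13 for miR-130b. miR-130b* was then no longer called, leaving 0 of 5 against 2.15% of the 372 called in either direction, and miR-301a became the lowest member. The part of base composition in these differences was not tested.

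**Figure D2:**
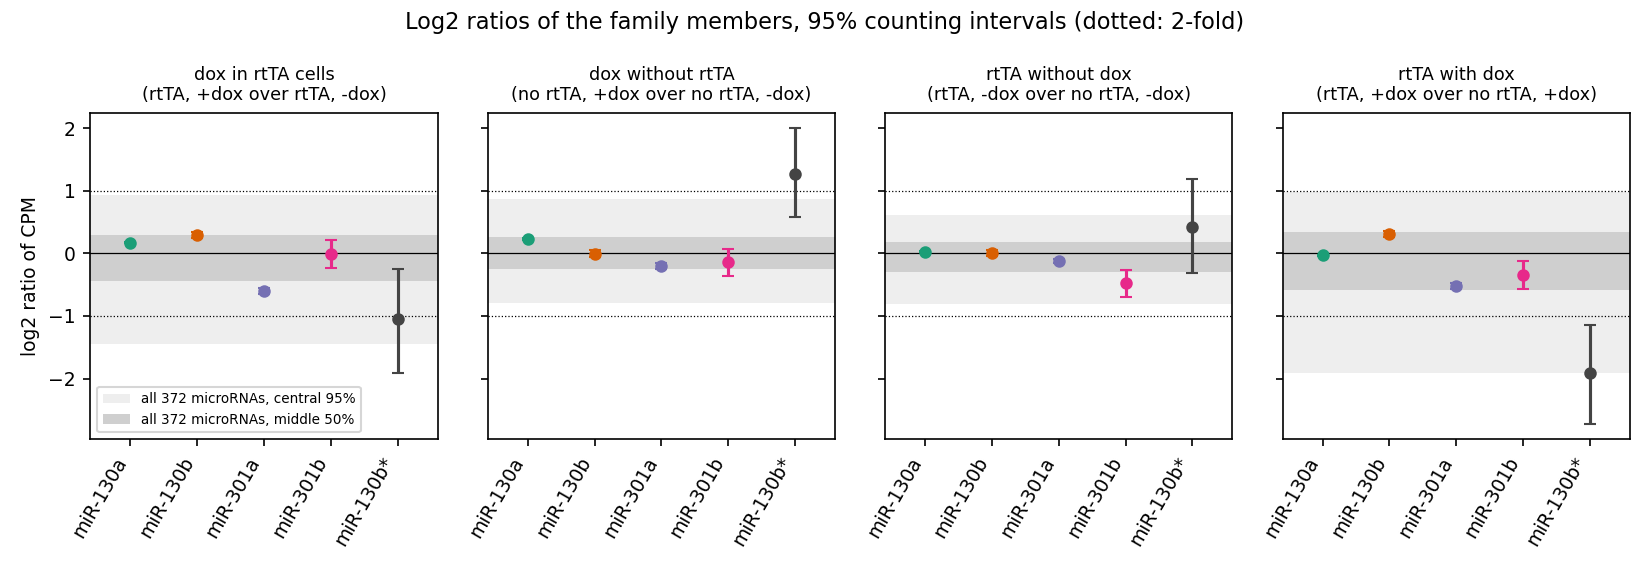
Log2 ratio of CPM of each family member in the 4 comparisons, with 95% counting intervals (exact conditional binomial). Bands show the middle 50% and the central 95% of all 372 microRNAs, and dotted lines mark 2-fold; miR-301a at -0.60 lies below the middle 50% with dox in rtTA cells, and miR-130b* changes direction between the dox comparisons.

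**Figure D3:**
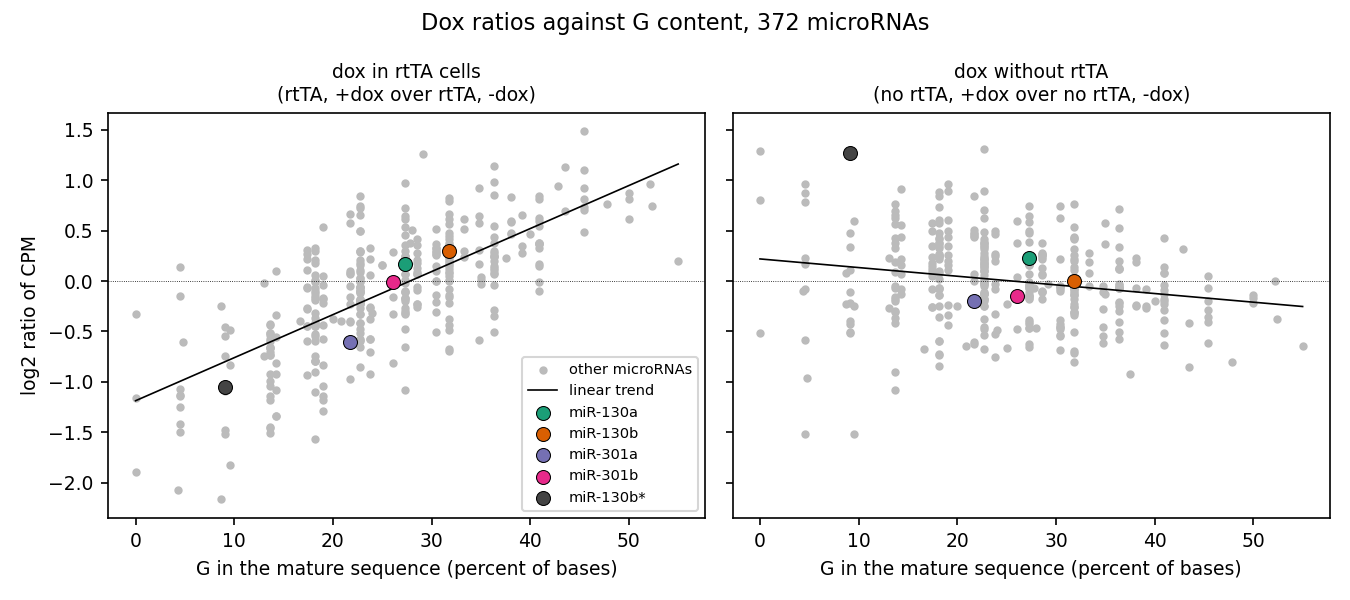
Log2 ratio of CPM with dox against the percentage of G in the mature sequence, for rtTA cells (left) and cells without rtTA (right). Grey points are the other microRNAs past the floor, lines are linear trends over all 372, and coloured points are the family members; the members follow the slope with rtTA, and miR-130b* at 1.27 stands far above it without rtTA.

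Dox without rtTA shows the drug with the shRNA uninduced. The guide strands summed to 21010 CPM in cells without rtTA under dox and 18474 CPM in cells without either, a log2 ratio of 0.19 (0.17 to 0.20). miR-130a carried this sum at 0.23 (0.22 to 0.24), and without it the other guide strands were at -0.13. miR-301a was at -0.20 (-0.24 to -0.16). miR-301b was at -0.14 (-0.36 to 0.075), an interval that includes equality. miR-130b was at -0.0024 (-0.057 to 0.053), with a sign that changed under DESeq2 factors and when the 10 most abundant microRNAs were left out of the scaling. The median of the guide strands was -0.074, against -0.039 over the 372. miR-130b* was called higher at 1.27 (0.58 to 2.01), on 62 and 25 counts, as 1 of 5 members against 0.806% of all microRNAs called higher and 1.61% called in either direction. Of the 372 microRNAs, 369 had a lower ratio, and after the G trend was subtracted miR-130b* was at 1.13 and still called, as 1 of 5 against 2.15% of all microRNAs. The correlation with G was -0.20 in this comparison.

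The dox ratios of both genotypes share no library and can be set against each other. For miR-301a the ratio was lower with rtTA than without by 0.40 on the log2 scale (difference -0.40, -0.46 to -0.34). For miR-130b it was higher with rtTA by 0.30 (0.23 to 0.37). For miR-130a the difference was -0.059 (-0.075 to -0.043) and for miR-301b 0.14 (-0.17 to 0.44), which includes 0. After the G trend was subtracted from both ratios, a step chosen after seeing the data, the differences were -0.11 for miR-301a and 0.078 for miR-130b, both much smaller, against -0.050 for miR-130a and 0.20 for miR-301b. As counted, miR-130b* differed by -2.29 (-3.30 to -1.27); it was the 1 of 5 members past 2-fold with an interval that excluded 0, as were 18% of the 372 microRNAs. After the G trend it differed by -1.38 and was again the 1 member past that rule, against 9.68% of all microRNAs.

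rtTA without dox compares both genotypes with the shRNA uninduced. The guide strands summed to 18667 CPM in rtTA cells and 18474 CPM in cells without rtTA, a log2 ratio of 0.015 (0.0041 to 0.026). miR-130a was at 0.030 (0.018 to 0.041) and miR-130b at 0.0018 (-0.050 to 0.053), both close to equality. miR-301a was at -0.12 (-0.16 to -0.085). miR-301b was the guide strand farthest from equality, at -0.48 (-0.70 to -0.26), with 41 of the 372 microRNAs below it. miR-130b* was at 0.42 (-0.31 to 1.18). None of the 5 members was at least 2-fold apart, against 0.538% of all microRNAs called higher, 1.34% called lower and 1.88% in either direction. The correlation with G was -0.0038, and the median of the guide strands was -0.061, against -0.071 over the 372.

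rtTA with dox sets the induced library, also used in the first comparison, against dox-treated cells that lack the transactivator. The guide strands summed to 20412 CPM in rtTA cells and 21010 CPM in cells without rtTA, a log2 ratio of -0.042 (-0.052 to -0.031) whose sign turned under TMM and DESeq2 scaling. miR-130a was at -0.029 (-0.040 to -0.018), and its sign turned under TMM and DESeq2 scaling as well. miR-130b was at 0.30 (0.25 to 0.35). miR-301a was at -0.52 (-0.57 to -0.48) and miR-301b at -0.35 (-0.58 to -0.12), both lower with rtTA under each scaling. miR-130b* was called lower at -1.91 (-2.73 to -1.14), as 1 of 5 members against 14.2% of all microRNAs called lower, 2.42% called higher and 16.7% in either direction. The median of the guide strands was -0.19, against -0.074 over the 372. At 1.5-fold, the same member was called, against 37.9% of all microRNAs, as it was for dox without rtTA (15.3%), while none was for rtTA without dox (9.41%). The correlation with G was 0.69. After the trend was subtracted, no member was called, against 5.65% of all microRNAs, and miR-130b* was at -0.89, miR-301a at -0.16 and miR-130b at 0.15. The part of base composition was not tested here either.

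Ratios between members of 1 library need no scaling, and the order of the family differed between libraries. miR-301a held 0.908 times the counts of miR-130b in rtTA cells with dox (0.878 to 0.938), against 1.69 times in rtTA cells without dox (1.65 to 1.75), 1.61 times in cells without rtTA under dox (1.56 to 1.67) and 1.85 times in cells without either (1.79 to 1.91). miR-301a was thus the second most abundant guide strand in the 3 uninduced libraries, and miR-130b took that place in the induced one. Between the rtTA libraries with and without dox this ratio differed by -0.90 on the log2 scale (-0.96 to -0.84), or -0.47 once the G trend was subtracted. Without rtTA the difference was -0.20 (-0.27 to -0.13) as counted, and -0.28 with the trend subtracted.

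The cluster neighbours miR-130b and miR-301b also differed in proportion. miR-130b had 25.5 times the counts of miR-301b in rtTA cells with dox (22.7 to 28.7), 20.5 times in rtTA cells without dox (18.4 to 22.9), 16.2 times in cells without rtTA under dox (14.5 to 18.2) and 14.7 times in cells without either (13.2 to 16.4). The intervals of the rtTA libraries lay above those of the libraries without rtTA. Between genotypes the log2 ratio of the proportion differed by 0.48 (0.26 to 0.70) without dox and by 0.65 (0.42 to 0.88) with dox. Between dox and no dox it differed by 0.31 (0.083 to 0.54) with rtTA and by 0.14 (-0.080 to 0.36) without rtTA. These 2 microRNAs differ in G by 31.8% against 26.1%, and their ratios after the trend was subtracted were 0.48 without dox and 0.36 with dox between genotypes. Between dox and no dox they were then 0.065 with rtTA, well below the value as counted, and 0.19 without rtTA.

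The passenger arm of the miR-130b hairpin took 0.248% of the counts of both arms in rtTA cells with dox (0.149% to 0.387%), 0.631% in rtTA cells without dox (0.462% to 0.840%), 1.14% in cells without rtTA under dox (0.873% to 1.46%) and 0.473% in cells without either (0.306% to 0.697%). The median star share over 81 hairpins with a star name was 2.19%, 2.16%, 2.30% and 2.05% in the same libraries, and 15 to 26 of those hairpins had a lower share than miR-130b. The log2 odds ratio of the passenger arm was -1.35 (-2.12 to -0.58) with dox in rtTA cells and 1.28 (0.60 to 1.95) with dox without rtTA. miR-130b* holds 9.09% G and its guide strand 31.8%, and the part of this gap in the odds was not tested. Among the endothelial markers, miR-126-5p (19.0% G) had log2 ratios of -1.18 and 0.96 in these comparisons, -1.95 for rtTA with dox and 0.19 for rtTA without dox, near those of miR-130b*. Its partner arm miR-126-3p was at 0.13 and 0.39, with -0.10 for rtTA with dox and 0.16 for rtTA without dox. miR-365 (4.55% G), which is on none of the marker lists and was picked from these same data, was at -1.41 and 0.96. It was at -2.10 for rtTA with dox and 0.28 for rtTA without dox. No search for the nearest profiles was made for miR-130b*, so these examples do not show how common such values are. Markers of other cell types were called as well. Of all 372 microRNAs, 9.95% were called for dox in rtTA cells, 16.7% for rtTA with dox and 1.88% for rtTA without dox. The muscle marker miR-1 was called at -1.08 with dox in rtTA cells, on 59 and 146 counts. There miR-133a was at -0.44 and miR-206 at 0.71, so the muscle markers differed in direction. For rtTA with dox miR-206 was called at 1.30, with miR-133a at 0.86 and miR-1 at 0.040. For rtTA without dox miR-1 was called at 1.06, on 146 and 51 counts, with miR-133a at 0.45 and miR-206 at 0.52. The neuronal marker miR-129-3p (9.09% G) was at -1.02 with dox in rtTA cells. It was the only 1 of 8 neuronal markers called there, against 8.6% of all 372 microRNAs called lower. The partner arm miR-129-5p was at 0.62, and the median of the 8 was 0.016. The summed muscle level was highest in the induced library, at 592 CPM, against 382 CPM in rtTA cells without dox, 246 CPM in cells without rtTA under dox and 262 CPM in cells without either. In the induced library miR-206 held 575 CPM of that sum. The part of these cell types in the miR-130b* values was not tested.

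**Figure D4:**
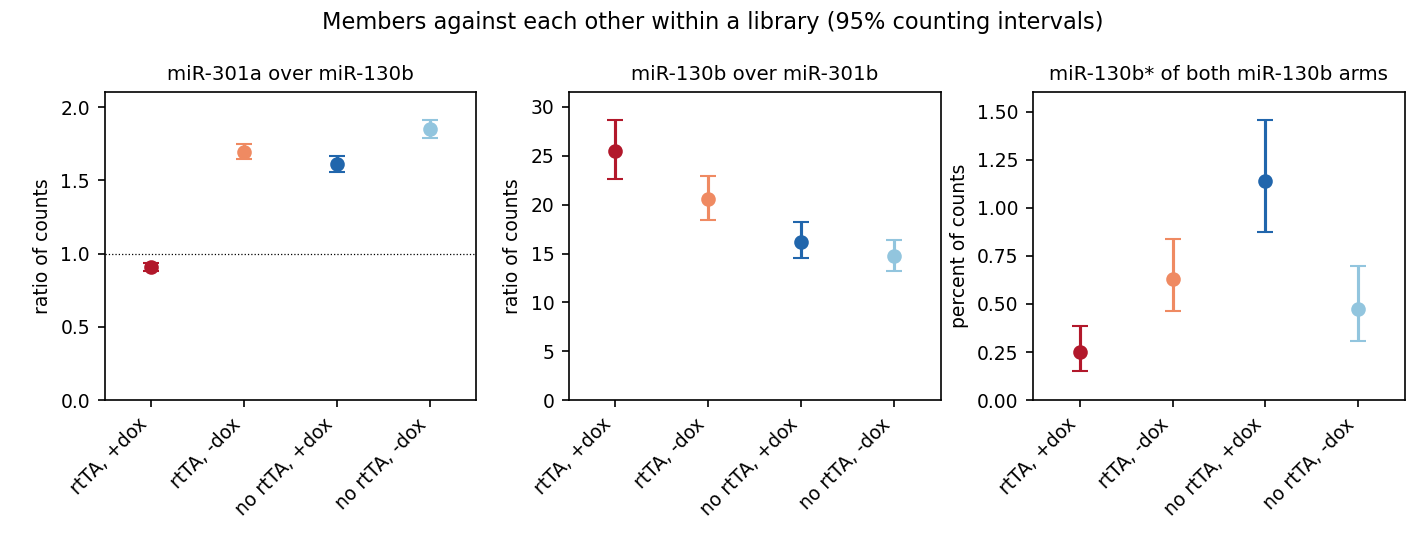
Proportions between family members within each library: counts of miR-301a over miR-130b, counts of miR-130b over miR-301b, and miR-130b* as a percentage of both miR-130b arms. Points are single libraries with 95% counting intervals and the dotted line marks equal counts; miR-301a lies below miR-130b in rtTA cells with dox alone.

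Likeness between profiles was measured as the Euclidean distance between log2 CPM profiles over the 4 libraries, each centred on its own mean, among 367 microRNAs outside the family. The nearest to miR-130a were miR-452 (distance 0.067), miR-873 (0.088) and miR-143 (0.092), an abundant microRNA of mesenchymal cells. The nearest to miR-130b were miR-20a (0.042), which comes from a cluster with miR-17, miR-425* (0.053) and miR-99b* (0.097). The nearest to miR-301a were miR-455 (0.11), miR-92a (0.13) and miR-96 (0.14). The nearest to miR-301b were miR-214 (0.14), miR-484 (0.14) and miR-22* (0.14). In the order named, those of miR-130a (27.3% G) held 31.8%, 28.6% and 28.6% G, and those of miR-130b (31.8%) 30.4%, 33.3% and 36.4%. Those of miR-301a (21.7%) held 23.8%, 23.8% and 17.4%, and those of miR-301b (26.1%) 31.8%, 18.2% and 22.7%. The part of base composition in this likeness was not tested. Within the family, miR-130a and miR-130b were the closest pair (0.24) and miR-130b and miR-301a the farthest (0.81), and miR-130b and its cluster neighbour miR-301b were 0.62 apart. Of all microRNAs, 7.55% were nearer to miR-130a than miR-130b was, and 17.0% were nearer to miR-301a than miR-301b was (0.43). With 367 candidates outside the family against 3 other guide strands, nearer profiles outside it say nothing particular about the members.

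Of 5 further microRNAs tied to Pparg, 4 had enough counts to compare and none was called in any comparison. The shares of all microRNAs called were 9.95% (dox in rtTA cells), 1.61% (dox without rtTA), 1.88% (rtTA without dox) and 16.7% (rtTA with dox), so a count of 0 among 4 does not stand apart. miR-27a and miR-27b, which repress Pparg, were lower with dox in rtTA cells, at -0.26 each, and higher with dox without rtTA, at 0.20 and 0.24. miR-322 and miR-503, the mouse relatives of human miR-424 and miR-503, which are known to act downstream of PPARγ in endothelial cells, were at 0.085 and 0.93 with dox in rtTA cells. Without rtTA, they were at -0.47 and -0.051 with dox. miR-27a and miR-27b hold 23.8% G, miR-322 22.7% and miR-503 34.8%, and the part of base composition in these ratios was not tested. miR-503 had 914 CPM in rtTA cells with dox, 481 CPM in rtTA cells without dox, 734 CPM in cells without rtTA under dox and 761 CPM in cells without either. The rtTA library without dox was the lowest of the 4, and the log2 ratio was 0.32 for rtTA with dox and -0.66 for rtTA without dox.

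A fit over all 4 libraries with additive terms for dox and rtTA called none of the 5 members (edgeR quasi-likelihood test, Benjamini-Hochberg over 372 microRNAs). The lowest adjusted p of a member was 0.999 for dox, on log2 fold changes of -0.38 (miR-301a) to 0.22 (miR-130a). For rtTA it was 0.939, on -0.68 (miR-130b*) to 0.20 (miR-130b). Of all 372 microRNAs, 0% were called for either term, 11 had an unadjusted p under 0.05 for dox and 25 for rtTA, none of them a member. A single residual degree of freedom is left in this fit, which takes the dox effect to be equal in both genotypes. DESeq2's Wald test with the same terms also called none, with 11 and 15 microRNAs at an unadjusted p under 0.05.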

How the data were processed

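The authors deposited raw counts of reads, 1 whole number per microRNA and library, per the file headers; the aligner, mismatches allowed, database version, genome build and handling of reads that fit several microRNAs were not given in the sources used here. Unlisted microRNAs were taken as 0. CPM were computed without the shRNA row. The floor for a comparison was a mean of 3.14 CPM, which is 20 counts in the smallest library; 372 of 508 microRNAs and all 5 members were above it. Log2 ratios have exact conditional binomial 95% intervals, shares Clopper-Pearson intervals, and double ratios delta-method intervals (0.5 added to each count for the difference of the dox ratios). A call needed a 2-fold ratio with equality outside its interval. All intervals cover counting error only, because each group holds 1 library. They can be too narrow even for that, because PCR copies of a molecule are counted separately.

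The additive fit used edgeR 4.0.16 (quasi-likelihood, TMM) in R 4.3.3, with DESeq2 1.42.0 as an alternative. The fit was run on simulated counts with a dox effect equal in both genotypes, and the intervals were checked on simulated Poisson counts. These settings match the assumptions of the methods, so they do not show how the methods behave where real counts depart from them. Mature sequences came from the deposited tables, and hairpins and positions from RefSeq (GRCm38.p6); every listed member was found in its hairpin, and 4 of 5 had a RefSeq mature entry of equal sequence (miR-301b excepted). Named microRNAs were the members, those with the family seed, the 3 nearest profiles of each guide strand and neighbours within 10 kb. The Pparg-related list, markers from the cell type lists and the shRNA were named as well. miR-365 fits none of these rules and was picked from the same data. The members and lists were chosen with earlier results of these data known. Other scalings, floors, call rules and a trend on G were tried.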

Additional observations from a re-analysis of the deposited data

Results flagged for a closer look

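miR-130b* had dox ratios of opposite direction in the 2 genotypes, each with a counting interval that excluded equality: a log2 ratio of -1.05 with rtTA and 1.27 without, a difference of -2.29 (-3.30 to -1.27). It rests on 19 and 46 counts with rtTA and on 62 and 25 counts without. With the linear G trend taken off, the ratio with rtTA was -0.25 (-1.11 to 0.55), which includes equality, and the ratio without was 1.13 (0.44 to 1.87). Of all 372 microRNAs, 18% differed by the same 2-fold rule as counted. The difference between genotypes was not tested against replicates, since each group holds 1 library.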

How the results depend on the processing

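The family total followed miR-130a. Without it, the log2 ratio of the guide sum was -0.19 (dox in rtTA cells), -0.13 (dox without rtTA), -0.086 (rtTA without dox) and -0.15 (rtTA with dox), against 0.13, 0.19, 0.015 and -0.042 with it. The median of the 4 guide strands was 0.079, -0.074, -0.061 and -0.19 in the same order. With the trend on G subtracted, that median was 0.097, -0.044, 0.013 and -0.053, so its sign turned for rtTA without dox. TMM gave a sum of 0.17 (dox in rtTA cells), 0.039 (rtTA without dox) and 0.038 (rtTA with dox), DESeq2 factors 0.17, 0.21, 0.081 and 0.038 in the 4 comparisons, scaling without the 10 most abundant 0.15, 0.20, 0.034 and -0.017, and scaling with the shRNA included 0.095 (dox in rtTA cells) and -0.075 (rtTA with dox). The difference of the dox ratios, -0.057 for the sum, was 0.014 as the median of the guide strands after the G trend. Members called numbered 2 with dox in rtTA cells at 1.5-fold, and 0 with dox in rtTA cells and 0 for rtTA with dox after the G trend, which left 2.15% and 5.65% of all microRNAs called there; floors of 5 counts or none changed no count of members. For rtTA with dox, miR-130a was at 0.050 under TMM, 0.051 under DESeq2 factors and 0.053 after the G trend. Near-identical partners were also counted together, an alternative chosen after seeing the data. The sum of miR-130a and miR-130b was at -0.013 there, 0.18 for dox in rtTA cells and 0.22 for dox without rtTA. The sum of miR-301a and miR-301b was at -0.58 for dox in rtTA cells and -0.13 for rtTA without dox. In the induced library miR-130a held 138388 of the 146024 counts of its pair, and miR-301a 6930 of 7230. Each sum thus had to lie near the ratio of its abundant partner, and it cannot check miR-130b or miR-301b. How reads fitting both were assigned is not given. Each other scaling moved all log2 ratios of a comparison by the same amount, such as 0.079 under TMM for rtTA with dox. The cause of the changes under the G trend was not tested. No paired analysis was possible because the groups share 1 replicate number only; the additive fit, which compares dox within genotype, is the nearest to one. Depth limits miR-130b* most, with 19 to 62 counts per library.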
